A study of Mus musculus with 3 samples.

Results

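ILC1 and NK-like cells of the mouse lung are described here from 70 single cells among 3542 kept cells of 2 libraries. They were chosen by transcript counts: no unique molecular identifier (UMI) of the T cell receptor chains Cd3e and Cd3d, at least 2 UMIs summed over Ncr1, Xcl1 and Klrb1c, and fewer than 2 summed over the progenitor genes Tox2, Sox4, Cacna1e and Batf3. Of these members, 32 came from 1659 kept cells of the IL-18R+ pool (1.93%, exact 95% interval 1.32% to 2.71%) and 38 from 1883 kept cells of a library whose label reads IL-18R- CD103- GFP-, called the labelled-negative library below (2.02%, 1.43% to 2.76%). The intervals of the 2 shares overlap. In the third library, labelled IL-18R- ST2+, 1 of 1622 kept cells met the rule, and that library was not used further.

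All cells came from lungs of GFI1B-GFP reporter mice, in which green fluorescent protein marks activity of the gene for the repressor GFI1B. Lungs were perfused and enzyme-digested, and live cells positive for CD45, CD90.2 and the IL-7 receptor and negative for lineage markers were sorted for 10x Genomics 3' single-cell RNA sequencing. The IL-18R+ pool mixes 2 sorts, IL-18R+ CD103+ GFP- cells and IL-18R+ CD103- GFP+ cells whose barcodes cannot be told apart. The labels state neither the age, number and full strain of the mice nor the antibodies used to remove lineage-positive cells. Each group was 1 library. No difference between libraries therefore has a replicate check, no p-value is given, and every interval covers counting error only.

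Natural killer (NK) cells and group 1 innate lymphoid cells (ILC1) are lymphocytes without rearranged antigen receptors that depend on the factor T-bet (Tbx21) and make interferon gamma. Both carry activating receptors such as NKp46 (Ncr1), NK1.1 (Klrb1c) and NKG2D (Klrk1), which signal through small adaptor proteins. NK cells circulate, depend on Eomes and kill with perforin and granzymes, whereas ILC1 tend to stay in tissue, keep the IL-7 receptor and are less cytotoxic. Both release the chemokines XCL1 and CCL5.

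The genes on which the description turns lie in different places in the mouse genome (GRCm38). Ncr1 lies on chromosome 7 at 4337724 to 4345164 (plus strand) and Xcl1 on chromosome 1 at 164931644 to 164935527 (minus strand). Klrk1, the gene of NKG2D, lies on chromosome 6 at 129610323 to 129623864 (minus strand), in the cluster of killer lectin-like receptor genes. The 250 bases before the RefSeq start of each (GRCm38.p6) are shown because Ncr1 and Xcl1 led the choice of cells and Klrk1 was found in every member. Capitals mark the letters of a RUNX motif (TGTGGT, or ACCACA on the other strand) or of a T-box motif (GGTGTG, or CACACC on the other strand), the motifs of factor families that act in NK cells and ILC1.
Ncr1, chr7:4337474-4337723, plus strand: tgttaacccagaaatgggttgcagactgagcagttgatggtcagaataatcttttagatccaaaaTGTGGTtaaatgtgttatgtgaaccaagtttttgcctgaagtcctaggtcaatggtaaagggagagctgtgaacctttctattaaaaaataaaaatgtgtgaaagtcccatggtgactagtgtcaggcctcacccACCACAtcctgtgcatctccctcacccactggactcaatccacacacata
Xcl1, chr1:164935523-164935772, minus strand: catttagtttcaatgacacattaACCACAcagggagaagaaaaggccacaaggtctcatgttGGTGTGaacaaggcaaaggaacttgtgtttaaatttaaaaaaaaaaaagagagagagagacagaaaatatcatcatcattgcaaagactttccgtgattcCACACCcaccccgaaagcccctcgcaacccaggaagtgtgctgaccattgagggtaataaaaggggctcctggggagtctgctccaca
Klrk1, chr6:129623865-129624114, minus strand: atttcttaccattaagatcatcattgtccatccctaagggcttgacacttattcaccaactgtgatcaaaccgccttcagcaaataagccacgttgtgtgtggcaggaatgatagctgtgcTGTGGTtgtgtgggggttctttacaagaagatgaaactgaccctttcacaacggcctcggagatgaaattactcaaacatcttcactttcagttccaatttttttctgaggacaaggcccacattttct
The Ncr1 window held the RUNX letters 185 and 50 bases before the start, and the Klrk1 window held them 129 bases before it. The Xcl1 window held RUNX letters 227 bases and T-box letters 188 and 88 bases before the start. Of the windows searched but not shown, those of Fcer1g and Tbx21 held neither motif and that of Klrb1c held 1 RUNX match. Across 32851 mouse promoter windows of the same length, 14.0% held the RUNX letters and 16.3% the T-box letters on either strand, so a match is a description of the sequence and not a binding site.

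The 9 genes of the rule are described here and support nothing. Xcl1 was found in 22 of 32 members of the pool and 34 of 38 labelled-negative members, at 716 UPM and 1627 UPM (UMIs per 1000000 UMIs summed over a class of cells). Ncr1 was found in 24 of 32 pool members at 426 UPM and in 20 of 38 labelled-negative members at 301 UPM. Klrb1c was found in 8 of 32 pool members and 17 of 38 labelled-negative members. All 3 genes were present together in 3 pool members and 9 labelled-negative members. The median sum over the 3 genes was 6 UMIs in pool members and 8 in labelled-negative members. Few cells lay near the threshold of this sum. It was exactly 2 in 3 pool members and 5 labelled-negative members. Left out were 3 pool cells and 7 labelled-negative cells with a sum of 1. On the progenitor genes, 10 pool members and 2 labelled-negative members had a sum of 1, and 2 pool cells and 4 labelled-negative cells with a sum of 2 were left out. With higher sums included, 12 pool cells and 5 labelled-negative cells that met the other conditions were left out. They fell in the progenitor-gene classes described below.

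The members held 220530 UMIs in the pool and 202829 in the labelled-negative library. Their median depth was 5832.5 UMIs per cell in the pool, against 4921 in its other kept cells, and 5024.5 in the labelled-negative library, against 4769. At this depth 3 UMIs over all members, the floor used for genes with fewer, equal 13.6 UPM in the pool and 14.8 UPM in the other library. The doublet caller marked no member, but it marked only 4 of 1659 kept pool cells, too few to be relied on. The libraries shared 1 barcode among kept cells, and it was no member. Il18r1, which encodes the IL-18 receptor chain, had a UMI in 35 of 38 members of the labelled-negative library and in 1590 of its 1845 other kept cells, so its RNA goes against the IL-18R- of the label (RNA is not surface protein). Gfi1b had 0 UMIs in all members and in all other kept cells of both libraries, and was looked up because it is the reporter gene, outside the rule for named genes.

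Set against all other kept cells of the same library, the members had higher levels of the receptor genes Klrk1 and Klrd1, the adaptor genes Fcer1g and Tyrobp and the granule gene Ctsw in both libraries. A gene was measured when the higher side reached 50 UPM in at least 5 cells, and called higher or lower at a ratio of 2 or more with sums raised to the floor. A gene near 0 on the lower side could be measured only through the higher side, which fixed its call. Among 3508 genes measured in the pool, 316 (9.01%) were higher and 253 (7.21%) lower in members than in the other cells. Among 3408 genes measured in the labelled-negative library, 349 (10.2%) were higher and 179 (5.25%) lower. Scaling by the trimmed mean of M-values moved all log2 ratios by -0.17 in the pool, with 233 genes then higher and 363 lower. The same scaling moved them by -0.25 in the labelled-negative library, with 225 higher and 286 lower. The median log2 ratio over all measured genes was 0.11 in the pool and 0.18 in the labelled-negative library. The other cells were mostly T cells, with Cd3e or Cd3d in 1234 of 1627 in the pool and 1658 of 1845 in the other library.

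Of the adaptors and kinases that carry receptor signals, Fcer1g, Tyrobp, Lat2 and Plcg2 were higher in members of both libraries. In the whole list 5 of 10 measured genes were higher and 3 lower in pool members, and 4 of 11 were higher and 2 lower in labelled-negative members. Fcer1g, the Fc receptor gamma chain that pairs with NKp46, was found in 30 of 32 pool members at 1732 UPM (1563 to 1915), against 179.5 UPM in other cells, a ratio of 9.65 (8.61 to 10.8). In the labelled-negative library it was found in 36 of 38 members at 1666 UPM (1493 to 1854), against 100.2 UPM in other cells, a ratio of 16.6 (14.6 to 18.9). Fcer1g had a UMI in 1.22% of CD3-positive pool cells (median depth 4859 UMIs) and 3.62% of CD3-positive labelled-negative cells (4768 UMIs). Free RNA and expression by those cells cannot be told apart in these shares. Tyrobp, which encodes the adaptor DAP12, was at 1156 UPM in 22 of 32 pool members, against 174 UPM in other cells, and at 527.5 UPM in 19 of 38 labelled-negative members, against 32.6 UPM. Lat2, a relative of the adaptor Lat used by B cells and myeloid cells, was 7.1-fold (4.57 to 10.7) higher in pool members and 14.6-fold (8.23 to 24.8) higher in labelled-negative members. Plcg2, a phospholipase downstream of such receptors, was 6.64-fold (3.38 to 12) higher in pool members and 8.74-fold (4.14 to 16.8) higher in labelled-negative members. Hcst, which encodes DAP10, the partner of NKG2D, was called in neither library, with ratios of 1.43 in the pool and 1.35 in the labelled-negative library. Cd247 and Lat, adaptors of the T cell receptor, were lower in members of both libraries, while the T cell kinase gene Lck was 3.28-fold (2.28 to 4.59) higher in pool members and not called in labelled-negative members. Cd247, the zeta chain, was at 13.6 UPM in pool members against 156 UPM in other cells, and at 9.86 UPM in labelled-negative members against 196 UPM. Lat was at a ratio of 0.185 in the pool and 0.166 in the labelled-negative library. T cell genes are low in members partly because the rule asks for no Cd3e or Cd3d.

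**Figure D1:**
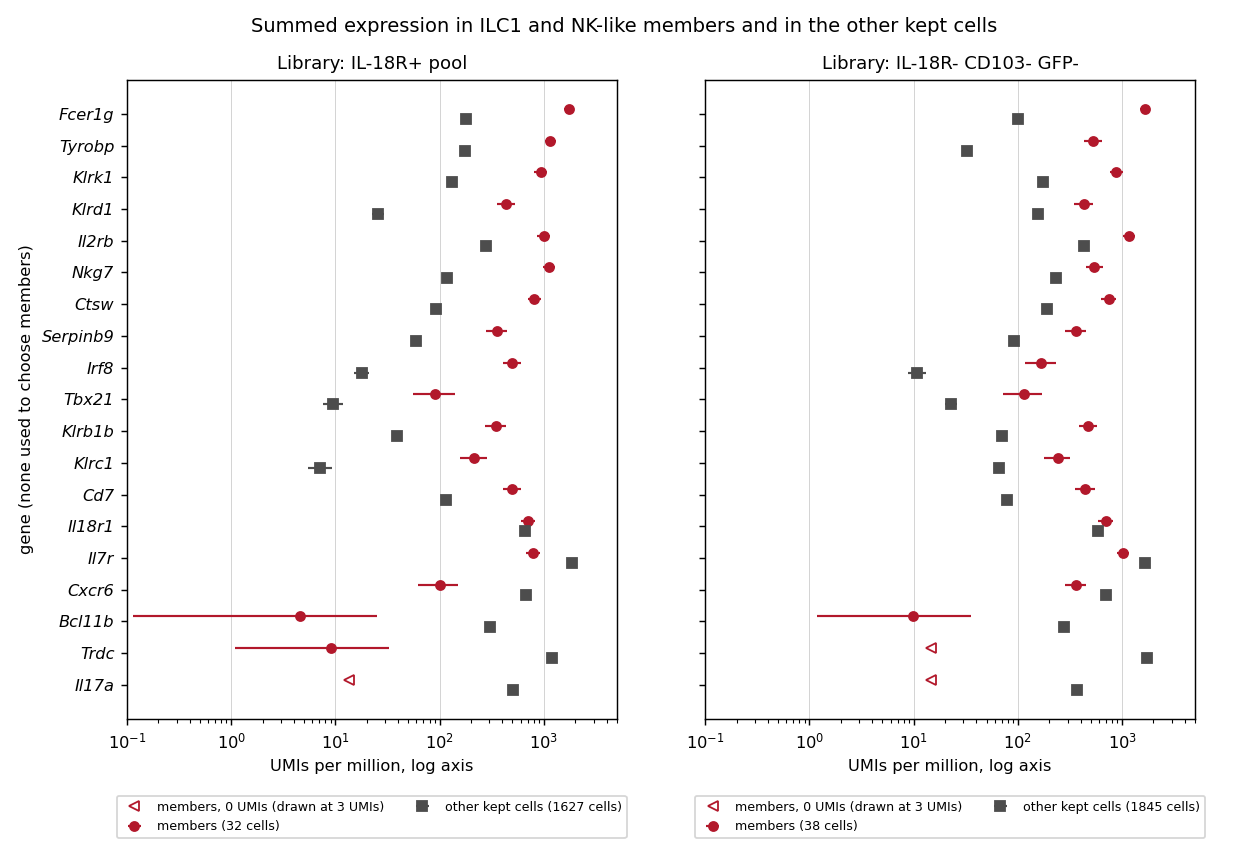
Summed expression in UPM (log axis) of 19 genes that the rule did not use, in members (circles) and in all other kept cells (squares) of the IL-18R+ pool (left) and the labelled-negative library (right); bars are 95% Poisson intervals of the counts, and open triangles mark members with 0 UMIs, drawn at the level of 3 UMIs. Fcer1g lies at 1732 and 1666 UPM in members, to the right of other cells in both libraries, while Il18r1 lies at about the same level in both classes and Trdc and Il17a lie far to the left.

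Among the NK receptors, Klrk1 (NKG2D) had a UMI in all 32 and all 38 members, at 934 UPM (811 to 1071) in pool members and 882.5 UPM (758 to 1022) in labelled-negative members. Other cells had 131 UPM in the pool, a ratio of 7.11 (6.1 to 8.25), and 173 UPM in the labelled-negative library, a ratio of 5.1 (4.35 to 5.96). A UMI of Klrk1 was also present in 29.3% of CD3-positive pool cells and 36.9% of CD3-positive labelled-negative cells, so it marks no class alone. Klrd1, which encodes CD94, was at 435 UPM in pool members against 25.6 UPM in other cells, and at 429 UPM in labelled-negative members against 157 UPM. The level in members was about equal in the libraries, while the level in other cells was not. Klrc1 and Klrc2, the NKG2 partners of CD94, were 29.7-fold and 36.4-fold higher in pool members, and 3.69-fold and 4.58-fold higher in labelled-negative members. They are near-identical copies, so their split is uncertain, as it is for the Klrb1 and Klra genes. Klrb1b, an inhibitory receptor of the NK1.1 family, was 8.86-fold higher in pool members and 6.77-fold higher in labelled-negative members. Klrb1f, of the same family, was 5.33-fold higher in pool members and 7.5-fold higher in labelled-negative members. In the list of NK receptors, 9 of 11 measured genes were higher and 0 lower in the pool (median log2 ratio 3.99), and 8 of 10 were higher and 0 lower in the other library (2.27). In the pool Slamf7, Klre1, Klri2, Klrc1 and Klrc2 could be measured only by being high in members, which fixed their calls. Of the 150 genes called higher in both libraries, 16 lie on chromosome 6, and 6 of those are Klr genes. The share of all measured genes on that chromosome was not counted, so these counts show no excess there.

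Nkg7, Ctsw, Serpinb9 and Ifng, genes of cytotoxic lymphocytes, were higher in members of both libraries, though Nkg7 was not called in the labelled-negative library under either other scaling. Nkg7, a granule membrane protein, was at 1125 UPM in pool members against 117 UPM in other cells, and at 542 UPM in labelled-negative members against 233 UPM. Ctsw, a cathepsin of cytotoxic lymphocytes, was 8.72-fold (7.38 to 10.3) higher in pool members and 3.89-fold (3.28 to 4.6) higher in labelled-negative members. Serpinb9, which shields cells from their own granzyme B, was 5.95-fold higher in pool members and 3.92-fold higher in labelled-negative members. Ifng, which encodes interferon gamma, was found in 9 of 32 pool members at 63.5 UPM (34.7 to 107) against 10.3 UPM in other cells. Without the 8 pool members that carried Gzma, described below, Ifng had 7 UMIs in pool members (36.6 UPM) and was no longer measured. In the other library it was found in 8 of 38 members at 138 UPM (91.7 to 200) against 26.6 UPM, and 17 of its 28 UMIs came from 1 cell. In the list of cytotoxic granule genes, 8 of 10 measured were higher in pool members and 4 of 6 in labelled-negative members, with 0 lower in either. In the pool Gzma, Gzmb, Gzmc and Prf1 could be measured only by being high in members, which fixed their calls.

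Ccl5 was the one gene called in opposite directions in the 2 libraries. It was at 2480 UPM (2277 to 2697) in pool members against 186 UPM in other cells, a ratio of 13.4 (12.1 to 14.7). Among labelled-negative cells it was at 656 UPM (549 to 777) in members against 2330 UPM in other cells, a ratio of 0.281 (0.236 to 0.334). Members with a Ccl5 UMI numbered 18 in each library. Other cells with a Ccl5 UMI numbered 91 of 1627 in the pool, 31 of them CD3-positive, and 422 of 1845 in the labelled-negative library, 409 of them CD3-positive. The difference between the libraries was not tested.

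Of the transcription factors, Tbx21 (T-bet) was at 90.7 UPM (55.4 to 140) in 14 of 32 pool members against 9.45 UPM in other cells, and at 113 UPM (71.9 to 170) in 11 of 38 labelled-negative members against 23 UPM. The pool ratio was 9.59 (5.57 to 15.8) and the labelled-negative ratio 4.92 (3.05 to 7.58). Irf8, a factor of myeloid cells that NK cells also use, was at 499 UPM in pool members against 17.9 UPM in other cells, and at 168 UPM in labelled-negative members against 10.8 UPM. Hhex, a homeobox factor, was 12.3-fold (7.97 to 18.6) higher in pool members and 22.7-fold (15.4 to 32.8) higher in labelled-negative members. Stat4, which relays IL-12, was 2.34-fold higher in pool members and 2.49-fold higher in labelled-negative members. Factors common to innate lymphocytes and T cells were called in neither library: Runx3, Id2, Ets1, Tcf7 and Rora had ratios between 0.884 and 1.9. Bcl11b, needed by T cells and ILC2, had 1 UMI in pool members against 302 UPM in other cells, and 2 UMIs in labelled-negative members against 276 UPM. Eomes, the NK factor, was found in 6 of 32 pool members at 72.6 UPM and in 2 of 38 labelled-negative members at 14.8 UPM.

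Cytokine receptors were mixed. Il2rb, the IL-2 and IL-15 receptor chain on which NK cells depend, was found in 31 of 32 pool members, 3.6-fold (3.12 to 4.13) higher than in other cells, and in 37 of 38 labelled-negative members, 2.69-fold (2.35 to 3.07) higher. Il18rap, the signalling partner of Il18r1, was 6.4-fold (4.73 to 8.53) higher in pool members and 3.46-fold (2.5 to 4.69) higher in labelled-negative members. Il18r1 itself was called in neither library, at 707 UPM in pool members against 662 UPM in other cells, and at 700 UPM in labelled-negative members against 589 UPM. Il7r, whose protein was part of the sort, was at 789 UPM in pool members against 1854 UPM in other cells (ratio 0.426) and at 1025 UPM in labelled-negative members against 1656 UPM (0.619, not called). Kit, the stem cell factor receptor, was 2.73-fold (1.88 to 3.84) higher in pool members and 4.03-fold (2.26 to 6.72) higher in labelled-negative members. Against the progenitor-gene cells described below, Kit was not called in the pool and was lower in labelled-negative members. Il1r1 and Il23r, receptors of ILC3 and interleukin-17 T cells, had a UMI in 1 member and 0 members of each library.

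Several genes outside the receptor lists were also higher in members of both libraries than in the other kept cells, which were mostly T cells. Pdgfa, a growth factor for fibroblasts, was at 141 UPM in pool members against 3.42 UPM in other cells, and at 187 UPM in labelled-negative members against 3.16 UPM. Vegfa, the blood vessel growth factor, was 7.29-fold (5.57 to 9.4) higher in pool members and 16.8-fold (13.1 to 21.4) higher in labelled-negative members. Nrgn, which encodes the calmodulin-binding protein neurogranin, was at 716 UPM in 19 of 32 pool members against 60.1 UPM in other cells, and at 636 UPM in 22 of 38 labelled-negative members against 51.6 UPM. In pool members Car2, a carbonic anhydrase, was 11.9-fold higher than in other cells, Ctla2b, a cathepsin inhibitor-like gene, 8.22-fold, Sulf2, an extracellular sulfatase, 16.1-fold, Atp1b1, a sodium pump subunit, 23-fold, and Gas7 16.1-fold. In labelled-negative members Car2 was 21.7-fold higher, Ctla2b 15.8-fold, Sulf2 56.9-fold, Atp1b1 23.4-fold and Gas7 17.3-fold. Against the progenitor-gene cells described below, Car2 was called higher in pool members and was not called in labelled-negative members. Styk1, which encodes a kinase-like membrane protein, was found in 8 members of each library. It was at least 279-fold higher in pool members than in other cells, which had 0 UMIs and were set to the floor of 3, and 67.7-fold (26.8 to 179) higher in labelled-negative members.

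Genes of gamma delta T cells, which the rule's demand for no CD3 had largely removed, were lower in members of both libraries. Trdc, the delta constant chain, had 2 UMIs in pool members, against 1191 UPM in other cells, and 0 in labelled-negative members, against 1741 UPM (at least 118-fold lower with the floor). Il17a had 0 UMIs in members of both libraries, against 511 UPM in other pool cells and 371 UPM in other labelled-negative cells. In the gamma delta list, 10 of 11 measured genes were lower and 0 higher in each library. Over the 3082 genes measured in both libraries, 150 were higher in members in both, which is 47.5% of the higher calls in the pool and 43.0% of those in the labelled-negative library. A further 86 were lower in both, which is 34.0% of the lower calls in the pool and 48.0% of those in the labelled-negative library.

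Lists of related genes were described by their counts and their median log2 ratio. In the list shared by ILC1 and NK cells, 15 of 15 measured genes were higher in pool members (median 3.26). Some of them, such as Tbx21, Cd160 and Car2, could be measured only by being high in members. In the labelled-negative library 10 of 13 were higher and 1, Ccl5, was lower (2.30). Among genes that lean to NK cells, 9 of 9 were higher in pool members (4.80), while 2 of 4 were higher and 2 lower in labelled-negative members. All 9 were at 19.6 UPM or less in other pool cells. They could be measured only by being high in members, which fixed their calls. Without the 8 pool members that carried Gzma, 2 of these genes, Klrc2 and Irf8, were still measured and higher in the pool, 6 of 8 measured NK receptor genes were higher, and 5 of 7 measured cytotoxic granule genes. Among genes that lean to ILC1, 2 were higher and 4 lower of 8 in the pool (-0.89), and 3 higher and 2 lower of 11 in the other library (-0.16). Tnfsf10, which encodes the death ligand TRAIL, was 3.13-fold higher in pool members and 6.39-fold higher in labelled-negative members. Inpp4b, a lipid phosphatase, was 3.69-fold higher in pool members and 4.21-fold higher in labelled-negative members. Cd200r1, an inhibitory receptor of ILC1, was found in 19 of 38 labelled-negative members, 11.1-fold (7.17 to 16.6) higher than in other cells, and in 2 of 32 pool members. Cxcr6, a receptor of tissue-resident lymphocytes, was lower in pool members at a ratio of 0.147, and not called in the other library at 0.514. In the ILC3 list 0 were higher and 5 of 7 lower in each library, and the ILC2 genes Il1rl1, Il5 and Il13 had 0 UMIs in members of both.

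Of the marker lists of other cell types, the myeloid list was lower and the B cell list higher in members by summed level. When every cell with 3 or more UMIs of B cell, myeloid, platelet, erythroid, stromal, endothelial or epithelial markers was left out, 17 of 32 pool members and 24 of 38 labelled-negative members remained. The myeloid list summed to 118 UPM in pool members against 1512 UPM in other cells, and to 39.4 UPM in labelled-negative members against 490 UPM, with 8 of its 11 genes at 0, including Lyz2, Csf1r and S100a8, in members of each library. Arg1, an arginase of macrophages and of innate lymphoid progenitors, was 3.86-fold (2.48 to 5.79) higher in pool members and 8.11-fold (5.35 to 11.9) higher in labelled-negative members. The B cell list summed to 585 UPM in pool members against 384 UPM in other cells, and to 355 UPM in labelled-negative members against 142 UPM. The B cell genes Cd79a and Ms4a1 were at 0 in members, and 73% of the Cd74 UMIs of pool members came from 1 cell. The mast cell list was at 0 in members of both libraries. Constant chains of the T cell receptor beta locus were present: Trbc1 was found in 27 of 32 pool members, at a ratio of 0.955, and in 22 of 38 labelled-negative members, at 0.683. Trbc1 and Trbc2 are near-identical copies, and unrearranged transcripts of this locus are known in innate lymphocytes.

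Within the pool, 8 of the 32 members carried Gzma (granzyme A), with 1, 37, 43, 48, 52, 62, 63 and 78 UMIs per cell. They held 98.7% of all Gzma UMIs in kept pool cells. None of the 38 labelled-negative members had a Gzma UMI. The cell with 1 Gzma UMI had no UMI of Prf1, Gzmb, Klra8, Itgam, Irf8 or Tyrobp. It had 3 UMIs of Ccl5 and 1 of Il7r, and so differed from the other 7. The 8 were shallower than the other 24, with a median of 3764 against 7191.5 UMIs, so a gene at 0 in them carries less weight. This division was made after their values were seen, and the values below describe it without a test.

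Most of the 8 Gzma cells carried further genes of the killing granules. Prf1 (perforin) was found in 7 of 8 at 1155 UPM (800 to 1614), against 4 of 24 at 26.2 UPM in the other pool members. Gzmb was found in 5 of the 8 and in 1 of the 24, and Ccl5 in all 8 at 16614 UPM, against 10 of 24 at 304 UPM. Klra8, the Ly49H receptor gene, was found in 7 of the 8 and 1 of the 24, and Itgam, which encodes CD11b, in 6 of the 8 and 0 of the 24. Klf2, a factor of circulating lymphocytes, was at 781 UPM in the 8 against 131 UPM in the 24. Irf8 was at 2208 UPM in the 8 against 235 UPM in the 24. Fcer1g and Klrk1 were present in all 8, at 2990 and 578 UPM, against 1538 and 989 UPM in the other 24.

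The other 24 pool members carried Il7r and several genes that were rare or absent in the 8. In the residency and trafficking list 2 of 14 measured genes were higher in the 24 than in other pool cells, and 5 were lower. Among the lower were Cxcr6, Cd69 and Itgae, at ratios of 0.170, 0.378 and 0.466. Il7r was found in 2 of the 8 Gzma cells at 67.95 UPM (8.23 to 245) and in 24 of 24 at 900 UPM (771 to 1045). Il18r1 was found in 5 of the 8 and all of the 24, and Rora in 1 of the 8 and 20 of the 24. None of the 8 had a UMI of Kit, Gata3, Cxcr6 or Cd27, which were found in 14, 12, 14 and 15 of the 24. Tcf7 was found in 1 of the 8 and 16 of the 24, and Nrgn in 1 of the 8 and 18 of the 24. In the 38 labelled-negative members, Il7r was found in 34, Il18r1 in 35, Rora in 32 and Tcf7 in 20.

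A second granzyme marked other cells. Gzmc, which encodes granzyme C, was found in 7 of the 24 pool members without Gzma and in none of the 8 with it. Of its 283 UMIs, 133 (47.0%) came from 1 cell. All 7 cells also carried Xcl1 and Il7r, 5 carried Itgae (CD103, one of the sort markers of the pool), and 4 carried Ccr10, a homing receptor for epithelium. Gzmc was found in 2 of the 38 labelled-negative members, with 3 UMIs.

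**Figure D2:**
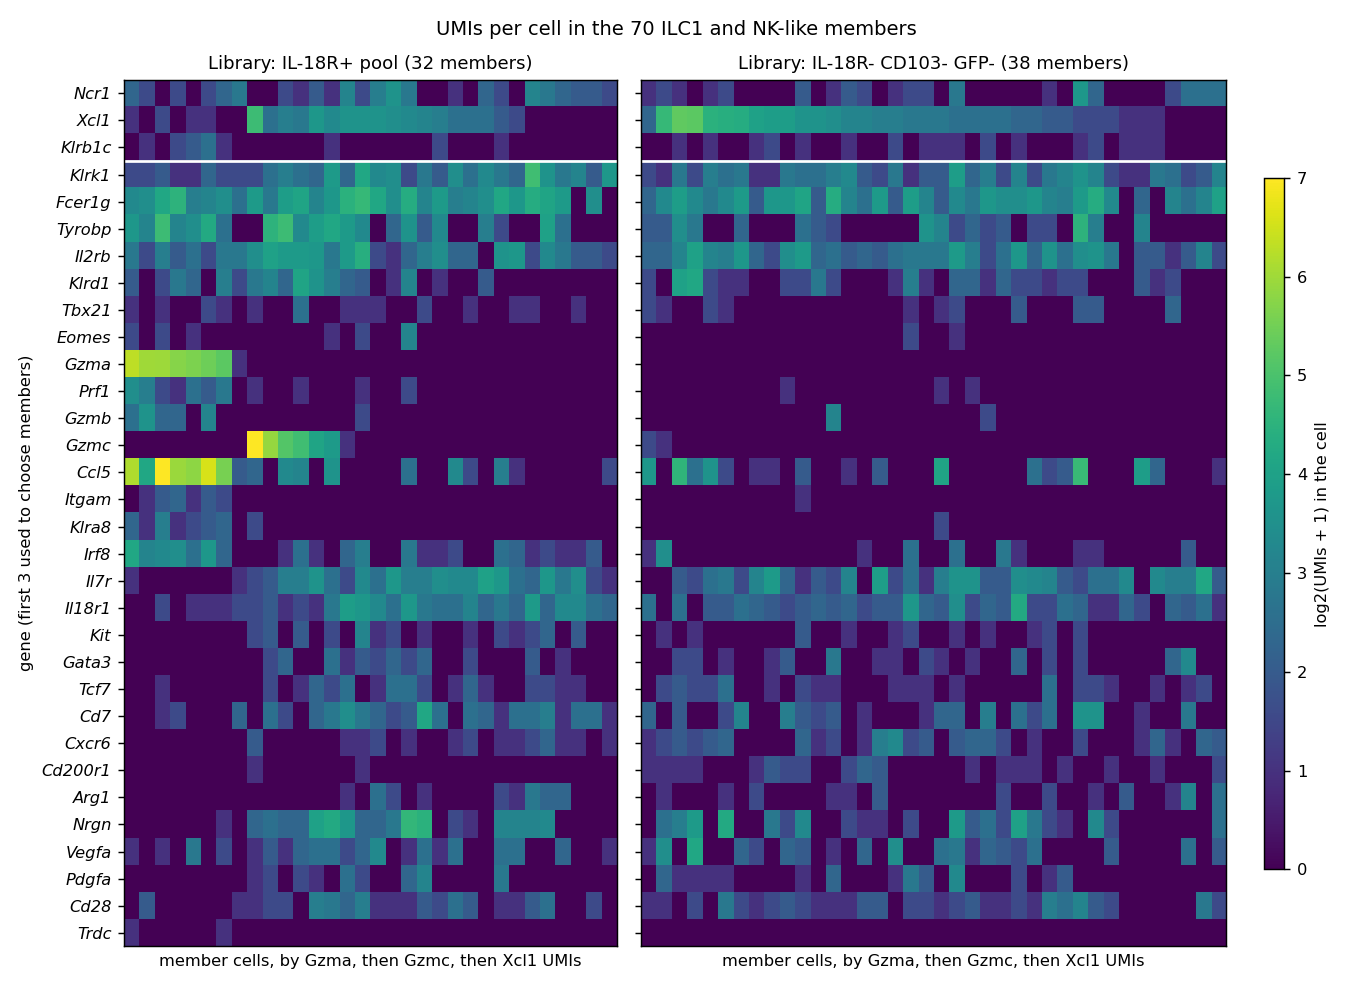
UMIs per cell on a log2(UMIs + 1) colour scale for 32 genes (down the page), of which Ncr1, Xcl1 and Klrb1c above the white line chose the members; each column is 1 member of the IL-18R+ pool (left, 32 cells) or of the labelled-negative library (right, 38 cells), ordered by Gzma, then Gzmc, then Xcl1. Of the 8 Gzma cells at the left of the pool, all carry Ccl5, 7 carry Prf1, 7 Klra8 and 6 Itgam, and none has a UMI of Kit or Gata3; the 7 Gzmc cells follow, and Klrk1 has a UMI in every column.

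Set against each other, the members of the 2 libraries lay within 2-fold of each other in Fcer1g, Klrk1, Klrd1 and Il2rb, and more than 2-fold apart in Gzma, Prf1, Cd200r1 and Cxcr6. Among 3526 genes measured, 244 (6.92%) were higher and 234 (6.64%) lower in pool members than in labelled-negative members. Fcer1g, Klrk1, Klrd1, Il2rb, Tbx21 and Ctsw were not called, with ratios between 0.8 and 1.09. Gzma was at 1741 UPM in pool members against 0 UMIs in the other members, at least 118-fold higher with the floor of 3 UMIs per library. Prf1 was at 177 UPM against 14.8 UPM, a ratio of 12 (3.8 to 60.5), and Gzmc at 1283 UPM against 14.8 UPM. Of the cytotoxic granule genes, 5 of 10 measured were higher in pool members and 0 lower. Of genes that lean to NK cells, 8 of 9 were higher in pool members. On these lists Gzma, Gzmc, Prf1, Itgam, Eomes and Klra8 could be measured only by being high in pool members. Without the 8 Gzma cells, 2 of the 9 genes that lean to NK cells were still measured and 0 of the 2 was called. Trat1, a T cell receptor-associated adaptor, was 8.58-fold (2.65 to 44.1) higher in pool members. Mki67, a proliferation marker, was at 95.2 UPM against 9.86 UPM, but 81.0% of its UMIs in pool members came from 1 cell.

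Of the genes that lean to ILC1, 3 of 10 measured were lower in pool members than in labelled-negative members and 0 higher. In the residency and trafficking list 1 of 12 measured genes was lower, Cxcr6, and 1 higher, Ccr10. Cd200r1 was at 9.07 UPM in pool members and 148 UPM in labelled-negative members, a ratio of 0.0613 (0.0071 to 0.242). Cxcr6 was at 99.8 UPM in pool members against 360 UPM, a ratio of 0.277 (0.164 to 0.452). Gpr183, an oxysterol receptor that guides lymphocytes, was at 168 UPM in pool members against 488 UPM, and the factor Maf at 163 UPM against 478 UPM. Cd244a, the receptor 2B4, was at 40.8 UPM in pool members against 118 UPM. Socs2, a brake on cytokine signals, had 0 UMIs in pool members and 19 in 5 labelled-negative members. The ligands Tnfsf8 (CD30 ligand, 2 UMIs in pool members and 21 in the other members) and Dll1 (a Notch ligand, 3 and 15 UMIs) lay in the same direction.

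The 8 Gzma cells decided several of these values. With them Ccl5 was 3.78-fold (3.12 to 4.61) higher in pool members. Without them it was lower, at 304 UPM against 656 UPM in labelled-negative members, a ratio of 0.463 (0.334 to 0.635). Tyrobp, Nkg7 and Irf8 were no longer called, with ratios of 1.66, 1.47 and 1.40. Against the other cells of the pool, Ccl5 without the 8 cells was at a ratio of 1.63 (1.24 to 2.12) and not called, while Fcer1g, Klrk1 and Tyrobp were still called at 8.57, 7.52 and 5.03. Cxcr6 and Cd200r1 were lower in pool members with and without the 8 cells, as the plot of log2 ratios shows. This alternative was chosen after the data were seen.

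**Figure D3:**
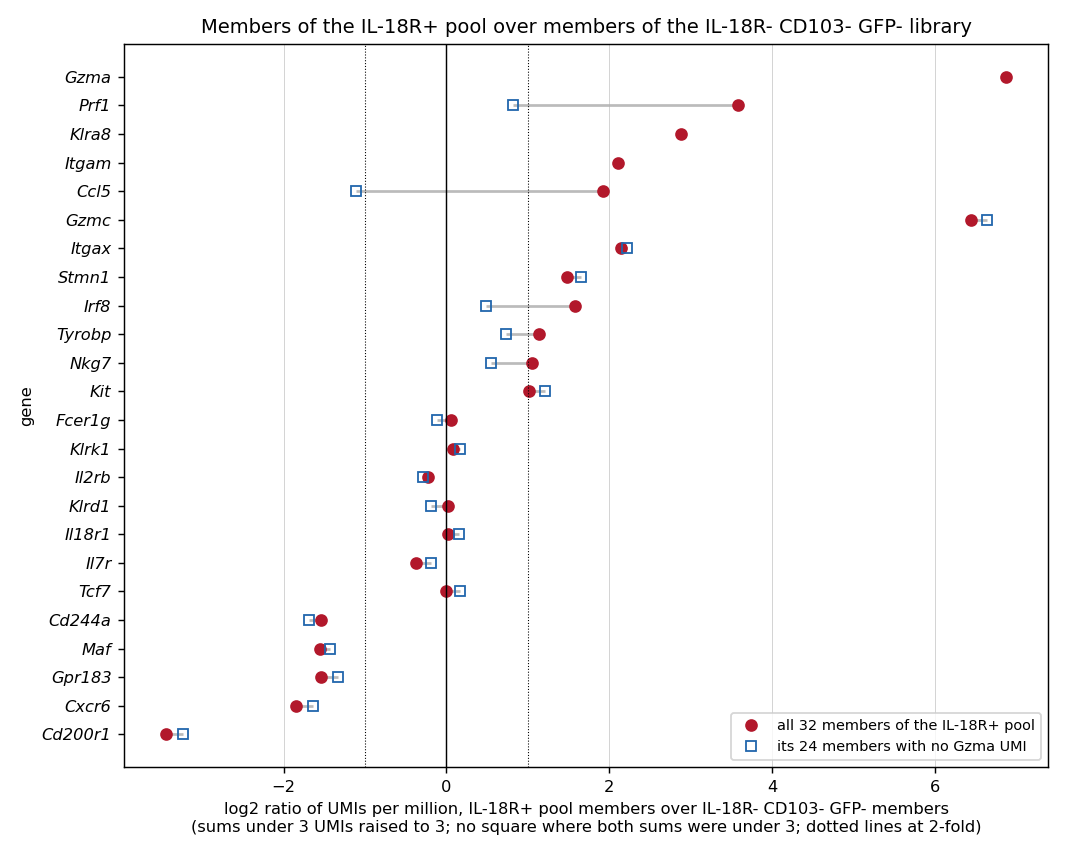
Log2 ratio of UPM in members of the IL-18R+ pool over labelled-negative members for 24 genes, with sums under 3 UMIs raised to 3; filled circles use all 32 pool members, open squares the 24 without a Gzma UMI, and dotted lines mark 2-fold. Ccl5 is at 1.92 with all pool members and at -1.11 without the 8 Gzma cells, Prf1, Irf8, Tyrobp and Nkg7 move inside the dotted lines, and Fcer1g, Klrk1 and Klrd1 lie near 0 either way.

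Against the CD3-negative cells of the pool that carried progenitor genes (105 cells, sum of Tox2, Sox4, Cacna1e and Batf3 of 2 or more), the members had higher levels of NK receptor genes, and 4 of 12 measured genes of the progenitor list were lower and 1, Cd7, higher. Among 3612 genes measured, 231 (6.4%) were higher and 274 (7.59%) lower in members. All 11 measured NK receptor genes were higher, Klrk1 at 934 UPM against 236 UPM and Klrd1 at 435 against 83.6 UPM. Of the 11, Slamf7, Klre1, Klri2, Klrc1, Klrc2 and Cd96 could be measured only by being high in members. The progenitor-gene cells were not free of genes shared by ILC1 and NK cells: Fcer1g was found in 66 of 105 at 581 UPM, against 1732 UPM in members. Tcf7, a factor of early lymphocytes, was at 181 UPM in members against 460 UPM, a ratio of 0.394 (0.278 to 0.545), and Pdcd1, which encodes PD-1 of innate lymphoid progenitors, at 49.9 against 354 UPM. Zbtb16 (PLZF) was at a ratio of 0.336 (0.157 to 0.637) and Gata3 at 0.49 (0.331 to 0.704). All 5 measured ILC2 genes were lower in members, among them Areg, at 304 against 609 UPM. Without the 8 Gzma cells 3 of these 5 were lower, and Gata3 (0.565) and Areg (0.576) were not called. Il7r, Il18r1, Kit, Rora, Arg1 and Cd28 were not called. Nor were Nrgn, Vegfa and Ctla2b, at 423, 183 and 216 UPM in progenitor-gene cells. Pdgfa, Car2, Sulf2, Atp1b1, Gas7 and Styk1 were called higher in members. Of 9 measured genes that lean to ILC1, 1 was higher in members and 1 lower. The progenitor-gene class was deeper (median 8405 UMIs) and held the endothelial gene Cldn5 in 26 of 105 cells and a stromal and epithelial list sum of 5037 UPM, against 145 UPM in members. The part of depth and of these markers in the lower calls was not tested.

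The corresponding progenitor-gene class of the labelled-negative library held 33 cells. Of 3687 genes measured, 742 (20.1%) were called, 368 (9.98%) higher and 374 (10.1%) lower in members. Klrd1 was at 429 UPM in members against 5.69 UPM in progenitor-gene cells (1 UMI, ratio 75.3, 13.2 to 3009, or 25.1 with that sum raised to the floor), and Klrk1 at 882.5 against 256 UPM. Fcer1g was not called, at 1666 against 1156 UPM. Of 10 measured NK receptor genes 5 were higher in members and 0 lower, and Klrb1b was not called. Of 9 measured ILC3 genes 8 were lower in members, and Il22, the ILC3 cytokine, had 0 UMIs in members and 552 UPM in progenitor-gene cells, in 7 of 33 cells. Tcf7 was lower in members here as well, at a ratio of 0.427 (0.28 to 0.641). Of 11 measured cytokine receptor genes, Kit, Il7r and Il1r1 were lower in members and Il18rap was higher. The other 7, among them Il2rb, were not called. Car2, Arg1 and Cd28 were not called either. Of 10 measured genes that lean to ILC1, 3 were higher in members (Tnfsf10, Cd200r1 and Inpp4b) and 2 lower.

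The same 3 NK genes also occurred in T cells. In the labelled-negative library 70 cells with Cd3e or Cd3d met the other conditions of the rule, against 6 in the pool. Among 3339 genes measured against those 70 cells, 688 (20.6%) were higher and 173 (5.18%) lower in the 38 members, with a median log2 ratio of 0.40. Scaling by the trimmed mean of M-values moved the ratios by -0.39 and gave 361 higher and 422 lower, so the excess of higher genes depends on the scaling. Ribosomal genes took 34.6% of the UMIs of the 70 cells and 19.4% of those of members.

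Set against these CD3-positive cells, 4 of 12 measured adaptor and kinase genes were higher in members (Fcer1g, Tyrobp, Lat2 and Plcg2) and 4 lower. Fcer1g was at 1666 UPM in members against 98.8 UPM, a ratio of 16.9 (12.5 to 23.2), and Tyrobp at 527.5 against 15.8 UPM. Klrb1b was found in 32 of 38 members and 2 of 70 T cells, and Cd244a in 15 and 1. Klrd1, Klrc1, Klrc2 and Nkg7 were not called, with ratios of 0.822, 0.962, 1.17 and 0.766. Of the genes that lean to ILC1, 9 of 11 were higher in members than in these T cells, against 3 of 10 in the comparison with progenitor-gene cells. Among the 9 were Cxcr6 (2.36-fold, 1.69 to 3.3), Itga1 (CD49a, 5.4-fold, 1.92 to 17.3) and Tnfsf10 (4.76-fold, 2.19 to 10.9). Under either other scaling Cxcr6 and Rora were no longer called higher. Nrgn was 161-fold (43.6 to 1343) higher, and Pdgfa had 0 UMIs in the T cells. Ccl5 was at 656 UPM in members against 8411 UPM in the T cells, and Ly6c2, a marker of memory T cells, at 9.86 against 1002 UPM. Ccr7, a homing receptor of circulating T cells, had 2 UMIs in members against 160 UPM in the T cells. Trdc was found in 60 of the 70 T cells and in 0 of 38 members.

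**Figure D4:**
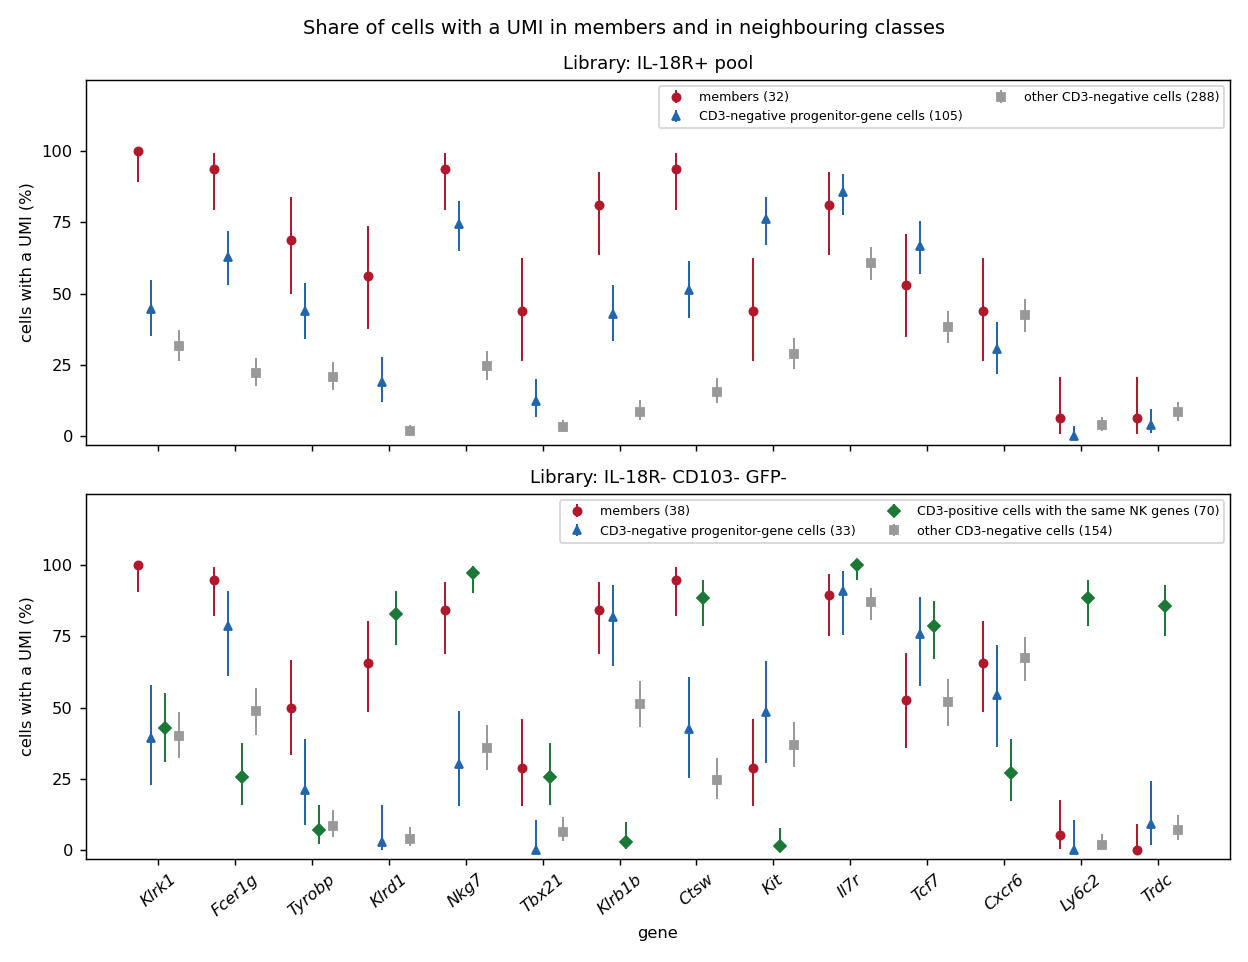
Share of cells with at least 1 UMI (%) for 14 genes in members (circles), CD3-negative progenitor-gene cells (triangles), CD3-positive cells with the same NK genes (diamonds, lower panel only) and other CD3-negative cells (squares); bars are exact 95% binomial intervals, and classes differ in depth. Klrk1 is at 100% in members of both libraries and Ly6c2 and Trdc are at the bottom in members but high in the T cells of the lower panel, where Klrd1 and Nkg7 are at least as frequent in those T cells as in members.

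Against all other CD3-negative cells, with neither the NK genes nor the progenitor genes at the level of the rule, 298 of 3659 genes (8.14%) were higher and 403 (11%) lower in members of the pool. In the labelled-negative library 284 of 3538 (8.03%) were higher and 267 (7.55%) lower. These CD3-negative cells held other cell types: 6 of 7 measured myeloid genes, 4 of 5 B cell genes and 3 of 5 stromal, endothelial and epithelial genes were lower in pool members, and 3 of 3 myeloid genes in labelled-negative members. S100a9, a neutrophil gene, had 0 UMIs in pool members against 2860 UPM in those cells. The part of these cell types in the lower calls was not tested. Klrk1, Fcer1g, Klrd1, Tbx21 and Il2rb were higher in pool members with and without the 8 Gzma cells, and without them 8 of 8 measured NK receptor genes were higher. Tyrobp was called in neither library against these cells. Of 9 measured genes that lean to ILC1, 1 was higher and 2 lower in pool members. Of 10 such genes in the labelled-negative library, 2 were higher and 0 lower in members. In the labelled-negative library 7 of 10 measured NK receptor genes were higher, and Klrb1b, Cd226 and Cd96 were not called. Both classes lacked Cd3e and Cd3d, but Cd3g was lower in members of both libraries, so T cell RNA still differed between them. Cd3g without Cd3e or Cd3d was found in 37 kept pool cells and 30 kept labelled-negative cells. In the labelled-negative library 4 of 5 measured gamma delta genes were also lower in members.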

How the data were processed

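Droplet libraries of 3' ends were prepared with 10x Genomics chemistry, per the labels' protocols. Reads were handled with Cell Ranger 6.0.1 against mm10, per the submitters' processing notes; for the gene annotation, no source used here names a version. Per the file headers, the deposited matrices hold counts: whole UMI counts per gene and barcode for 32285 genes, with no normalization.

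Cells were kept if they had 500 genes or more and no more than 10% of UMIs from mitochondrial genes (1659 of 1688 in the pool, 1883 of 1903 in the labelled-negative library). Scrublet, in scanpy 1.11.5, marked 4 and 11 of these cells; the pool share is too small to rely on and no cell was removed. UMIs were summed over each class and divided by its total. A gene was measured at 50 UPM or more in at least 5 cells of the higher class and called at a ratio of 2 or more, with sums raised to 3 UMIs. On simulated counts this rule was checked before use. Intervals are 95% Poisson, Clopper-Pearson or conditional binomial limits (scipy 1.17.1) and cover counting error only. Each group being 1 library, there is no test across libraries, and the comparisons of a library all share its members.

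The members, the 22 gene lists (255 of 256 genes found) and the comparisons were chosen with earlier results of these data known. Named genes are the 9 rule genes and 5 given markers, genes of the lists, the 12 largest ratios per direction called in both libraries, and the 10 largest per direction in each other comparison, leaving out predicted, ribosomal, mitochondrial and immunoglobulin genes. Alternatives were other cell filters, thresholds of the rule, a minimum of 100 UPM, a mean over cells, thinning to 2000 UMIs, removal of marked doublets or of cells with non-lymphocyte markers, and scaling by the trimmed mean of M-values (edgeR 4.0.16) or by median ratios. Loci are from GENCODE on GRCm38 and promoter windows from RefSeq on GRCm38.p6.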

Additional observations from a re-analysis of the deposited data

Results flagged for a closer look

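Ccl5, the gene of a chemokine made by NK cells and T cells, lay on opposite sides in the 2 libraries. The log2 ratio of members over other kept cells was 3.74 in the IL-18R+ pool and -1.83 in the labelled-negative library. The difference between the libraries was not tested, since each is 1 library. In pool members 489 of the Ccl5 UMIs came from the 8 Gzma cells and 58 from the other 24, and without those 8 cells the pool ratio was 1.63 on the linear scale.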

How the results depend on the processing

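Direction and side of the 2-fold threshold were the same under every setting tried for 73 of 128 named or listed genes called against other cells in the pool, 63 of 103 in the labelled-negative library, 17 of 48 between the libraries' members, 51 of 90 against pool progenitor-gene cells and 52 of 101 against CD3-positive cells with the same NK genes. The share of members ranged from 1.59% to 2.65% in the pool and from 1.61% to 2.28% in the labelled-negative library. A minimum level of 100 UPM left 281 called genes (569 at 50 UPM), 245 (528), 158 (478), 212 (505) and 427 (861) in the same order, because fewer genes are measured. Without cells with non-lymphocyte markers, 17 pool members and 24 labelled-negative members remained, and 768 genes were called between them (478 with all). Under that setting these log2 ratios reversed. Against other pool cells they were 1.79 for Gsn, 3.83 for Il1b, 4.37 for S100a8, 4.66 for S100a9 and Apoe, -0.31 for Stmn1, 4.13 for Ifitm3, 5.83 for Ccl6 and Sftpc and 2.55 for Ier3. Between the members it was -1.37 for Stmn1. Against progenitor-gene cells they were 1.57 for Egr1 and -0.13 for Cd226, and against CD3-positive cells -0.39 for Tnfsf8. S100a8, S100a9 and Sftpc had 0 UMIs in pool members, and Il1b, Apoe and Ccl6 were at or under the floor of 3 UMIs. With all cells that floor is 13.6 UPM in pool members but 0.342 UPM in the other pool cells. The reversed ratios of these genes therefore start from the floor and do not show expression in members. The cause of the other reversals was not tested. Under stricter limits on cells (1000 genes or more, 5% mitochondrial UMIs or less), Sftpc reversed to 4.06 against other pool cells, again with the member side at the floor. Median-ratio scaling gave 223 higher and 381 lower genes against other pool cells, 225 and 287 in the labelled-negative library, and 322 and 481 against CD3-positive cells. With 32 and 38 members, genes under 3 UMIs cannot be told from absent. No paired analysis was possible because each group is a single library without a replicate number.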

Other observations

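Genes of the residency and trafficking list were mixed in members. In this list 2 genes were higher and 5 lower of 14 measured in pool members, and the same counts held in labelled-negative members. Cd69, an early activation and retention marker, was at 104 UPM in pool members against 319 UPM in other cells, and at 202 UPM in labelled-negative members against 408 UPM. S1pr1, the receptor for exit into blood, was at 49.9 UPM in pool members against 108 UPM in other cells, and at 44.4 UPM in labelled-negative members against 155 UPM. Both were called lower in members of both libraries. Cd28, a co-stimulatory receptor of T cells, was higher in members: 4.37-fold (3.3 to 5.7) in the pool and 3.69-fold (2.89 to 4.66) in the labelled-negative library, with a UMI in 21 of 32 and 30 of 38 members. Cd7, found on NK cells and early lymphocytes, was 4.31-fold higher in pool members and 5.66-fold higher in labelled-negative members.

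Secreted products differed by gene. Tnf was lower in members, at 13.6 UPM in the pool against 77.6 UPM in other cells, and at 29.6 UPM in labelled-negative members against 102 UPM. Areg, the gene of amphiregulin, was called in neither library, at 304 UPM in pool members against 225 UPM in other cells. Some cytokine signals came from 1 cell: 54 of the 57 Ccl4 UMIs of labelled-negative members and all 20 of their Ccl1 UMIs.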
